A study of Mus musculus with 4 samples.

Results

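The genes described here are 7 that encode parts of the junctions and the laminin-binding integrin of the perineurium: the integrin subunits Itgb4 and Itga6, the tight junction genes Cldn1, Ocln, and Tjp1, the adhesion gene Mpzl2, and Lypd2. They were taken by symbol from a table of 20027 genes, and all 7 were found. They were chosen by their RPKM in these same libraries, in which cKO values of such genes stood above WT values, so the cKO and WT levels of the 7 are given as a description, without a test. The table came from RNA-Seq of fibroadipogenic progenitors (FAPs), the interstitial mesenchymal cells of skeletal muscle, which the study sorted from hind limb muscle of young mice in the second week of life as Sca1+ cells lacking CD31, CD45, and Vcam1 and used without culture. Of the 4 libraries, 2 were labelled cKO (Prx1-Cre;Bap1f/f) and 2 WT, all from male C57BL/6 mice, with 1 numbered animal per title. The Prx1-Cre driver acts in limb mesenchyme from before birth, so the deletion is not limited to FAPs of muscle. Prx1-Cre alone is named in the WT titles, whereas the study describes floxed mice without Cre as controls, so whether the WT animals carried the driver is unclear. Whether the libraries of a group came from separate preparations is not stated beyond the animal numbers.

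The perineurium is the sleeve of flattened cells around each nerve fascicle. Its cells are joined edge to edge by tight junctions, in which claudin-1, occludin, and the scaffold ZO-1 take part, and they rest on a basal lamina of laminin, which integrin α6β4 and related receptors bind. Together these features form the diffusion barrier between nerve fibers and the surrounding tissue. The same genes serve other barriers, among them epidermis and other epithelia, so none of them marks perineurial cells alone.

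Depth was placed at 90.4 and 41.4 M reads in cKO 1 and cKO 2 and at 46.5 and 89.1 M reads in WT 1 and WT 2, and each library had 10472 to 11195 genes at or above 1 RPKM (reads scaled to transcript length in kilobases and to M reads of the library). For the comparison of cKO with WT, the 11197 genes that reached 1 RPKM in 2 libraries were fitted with limma on the log2(RPKM + 1) scale, and 35.9% passed an adjusted p of 0.05 as higher in cKO and 6.48% as lower. That is 4016 genes higher and 726 lower, a split that became 1705 and 1560 after median-ratio scaling. The median gene lay 0.27 above 0 on this scale, so differences are also given relative to it. Bap1, the deubiquitinase gene targeted in cKO mice, was at 14.2 and 15.3 RPKM in cKO libraries and at 14.0 and 12.9 RPKM in WT libraries (limma adjusted p = 0.443), so its total RPKM does not check the genotype labels. Of 10 FAP markers 8 were lower in cKO and 0 higher, with Pdgfra at 69.7 and 51.3 RPKM in cKO libraries and at 104 and 136 RPKM in WT libraries.

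All 7 genes were higher in both cKO libraries than in either WT library, a separation also seen in 56.8% of all tested genes. Because these values chose the genes, nothing is read from that count. Itgb4, Ocln, Mpzl2, and Lypd2 reached 1 RPKM in the cKO libraries only and so entered the fit through that group. The other 3, Itga6, Cldn1, and Tjp1, exceeded 1 RPKM in all 4 libraries. In 6 of the 7, cKO 2 was above cKO 1, and Tjp1 was the exception.

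**Figure D1:**
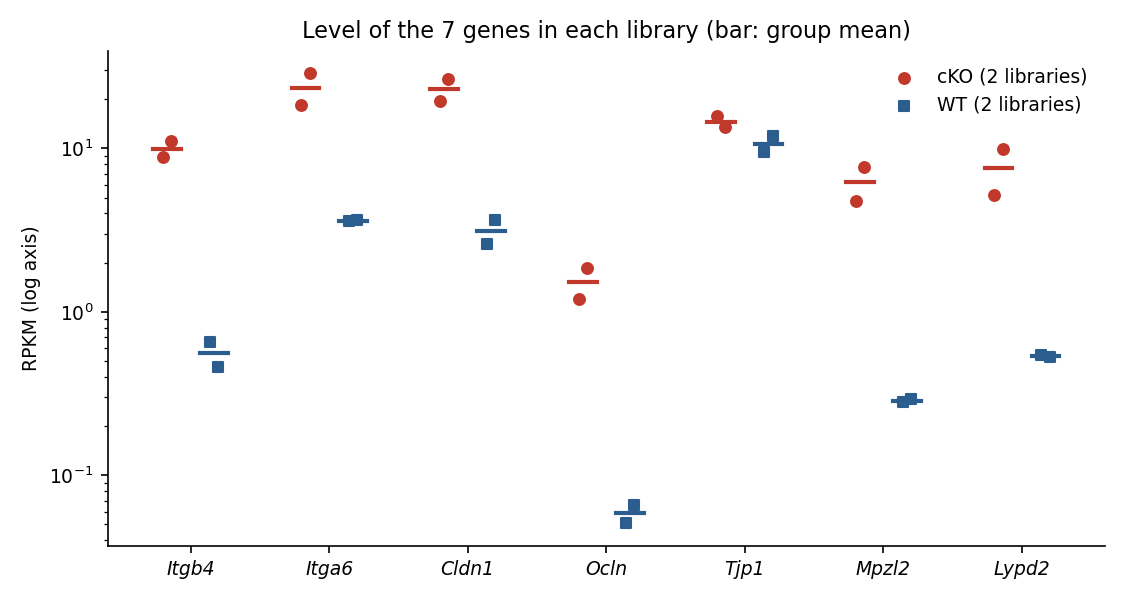
RPKM of the 7 genes in each library on a log axis, with the 2 cKO libraries (circles) left of the 2 WT libraries (squares) and a bar at each group mean. The cKO points lie above the WT points for every gene, with the narrowest gap for Tjp1, at 15.7 and 13.5 RPKM in cKO and 9.52 and 11.8 RPKM in WT.

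Itgb4 encodes integrin β4, the subunit that ties laminin receptors to intermediate filaments and that pairs only with α6. It was at 8.84 and 11.1 RPKM in cKO libraries and at 0.654 and 0.461 RPKM in WT libraries. The means were 9.95 ± 1.57 RPKM in cKO and 0.558 ± 0.137 RPKM in WT (SD, n = 2 each), a ratio of 17.8, and the difference of 2.81 on the log2(RPKM + 1) scale, 2.54 above the median gene, placed it at rank 52 of 11197 from the most raised gene. In GENCODE's GRCm38 annotation the gene spans chr11:115974709-116008412 on the plus strand and overlaps B230344G16Rik on the minus strand. Whether the counting used strand is not given in the sources used here, so reads of the overlapping genes cannot be told apart.

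Itga6 encodes integrin α6, the laminin-binding partner of β4 and also of β1. Its level was 18.3 and 28.8 RPKM in cKO libraries and 3.59 and 3.63 RPKM in WT libraries, a ratio of means of 6.52 and a difference of 2.38 on the log2 scale. The 2 cKO libraries lay further apart than the WT libraries, with means of 23.6 ± 7.44 RPKM in cKO and 3.61 ± 0.0330 RPKM in WT (SD, n = 2 each). The gene spans chr2:71745616-71858416 on the plus strand. It overlaps 4 predicted genes, Gm13662 and Gm13663 on the plus strand and Gm13739 and Gm17250 on the minus strand. Tjp1 overlaps Gm44792, Gm44794, and Gm44795, and Mpzl2 overlaps Gm48840. The limit given for Itgb4 applies to these genes too.

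Relative to Itga6, Itgb4 was higher in cKO. Itgb4 RPKM over Itga6 RPKM was 0.483 and 0.384 in cKO libraries and 0.182 and 0.127 in WT libraries. Itgb1, the alternative β partner of α6, remained far above Itgb4 in every library, at 252 and 291 RPKM in cKO and 170 and 176 RPKM in WT (log2 difference 0.64, limma adjusted p = 0.00703, 0.167 after median-ratio scaling and 0.00182 to 0.167 over all alternatives). Itgb4 made up 3.39% and 3.67% of the summed Itgb4 and Itgb1 RPKM in cKO libraries and 0.383% and 0.261% in WT libraries. Among the laminin-binding α subunits, Itga6 held 36.9% and 39.4% of the summed Itga3, Itga6, and Itga7 RPKM in cKO libraries and 27.3% and 23.4% in WT libraries. Each of these shares takes its direction in part from the genes picked.

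**Figure D2:**
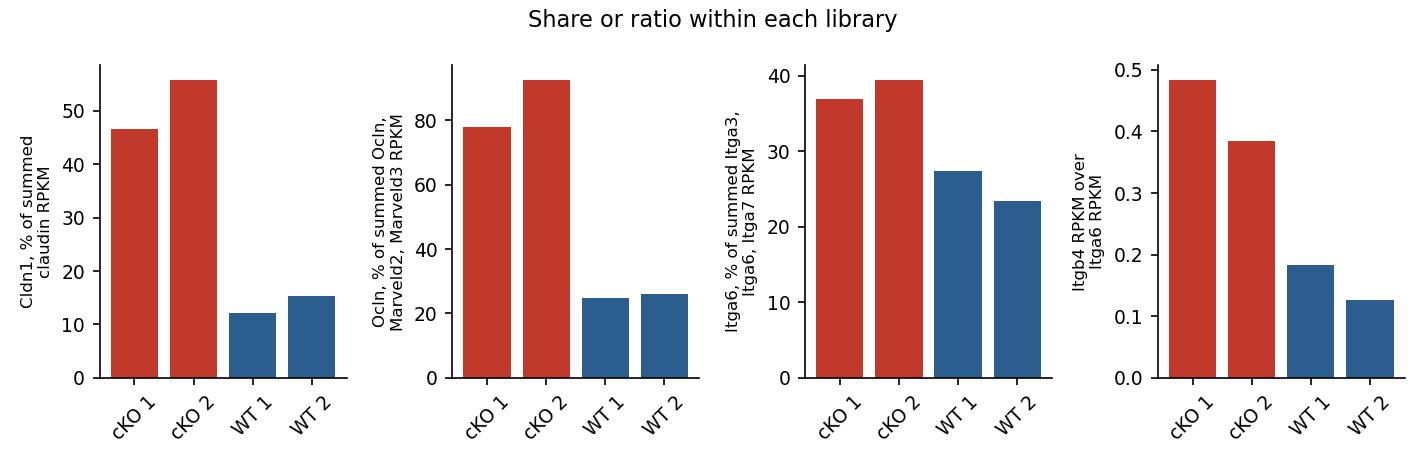
Bars, 1 per library with cKO left of WT, give Cldn1 as a percent of summed claudin RPKM, Ocln as a percent of summed Ocln, Marveld2, and Marveld3 RPKM, Itga6 as a percent of summed Itga3, Itga6, and Itga7 RPKM, and the ratio of Itgb4 to Itga6 RPKM. Cldn1 stands at 46.6% and 55.8% in cKO, against 12.1% and 15.4% in WT.

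Cldn1 encodes claudin-1, a strand-forming tight junction protein that seals epidermis and perineurium. It was at 19.4 and 26.7 RPKM in cKO libraries and at 2.62 and 3.66 RPKM in WT libraries. The ratio of means was 7.35, with SDs of 5.13 RPKM in cKO and 0.739 RPKM in WT (n = 2 each), and the log2 difference was 2.53, at rank 69. In WT libraries it was 1 claudin among several, whereas in cKO libraries it accounted for 46.6% and 55.8% of the RPKM summed over 31 claudin genes. The sum of the other claudins was far more even, at 22.3 and 21.2 RPKM in cKO and 19.0 and 20.1 RPKM in WT. Of those, 4 could be tested (Cldn5, Cldn12, Cldn15, and Cldn34c1, named after their values were seen), and 0 passed in either direction by limma. Cldn5, the claudin of endothelium, was at 0.300 and 3.06 RPKM in cKO libraries and 0.857 and 1.90 RPKM in WT libraries, so its groups overlapped.

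Ocln encodes occludin, a transmembrane protein of tight junction strands. It was at 1.21 and 1.85 RPKM in cKO libraries and at 0.0509 and 0.0660 RPKM in WT libraries, a ratio of means of 26.1. It was the least abundant of the 7 in every library. The WT values rested on about 9.59 and 23.8 estimated reads, against 442 and 311 in cKO libraries, so the ratio is less certain than its size appears. On the log2(RPKM + 1) scale, where low genes move little, the difference was 1.24, at rank 483, and it was 3.33 with a pseudocount of 0.1. Of its relatives at junctions where 3 cells meet or at strands, Marveld2 was at 0.216 and 0.0931 RPKM in cKO libraries and 0.151 and 0.110 RPKM in WT libraries, too low to be tested and overlapping. Ocln took 77.9% and 92.5% of the summed Ocln, Marveld2, and Marveld3 RPKM in cKO libraries and 24.7% and 26.0% in WT libraries.

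Tjp1 encodes ZO-1, the scaffold that joins claudins and occludin to actin, and it stood apart from the other 6 in size. It was at 15.7 and 13.5 RPKM in cKO libraries and at 9.52 and 11.8 RPKM in WT libraries, a ratio of means of 1.37. The log2 difference was 0.42, at rank 4132, which is 0.16 above the median gene. It was 0.13 after median-ratio scaling and 0.08 after quantile or cyclic loess normalization. Tjp1 was the most abundant of the 7 in WT libraries and the third in cKO libraries, below Itga6 and Cldn1. Cldn1 over Tjp1 was therefore 1.24 and 1.98 in cKO libraries and 0.275 and 0.309 in WT libraries.

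Mpzl2 encodes an immunoglobulin-type adhesion protein of epithelia. It was at 4.78 and 7.67 RPKM in cKO libraries and at 0.279 and 0.292 RPKM in WT libraries (6.22 ± 2.05 RPKM in cKO and 0.286 ± 0.00890 RPKM in WT, SD, n = 2 each). The ratio of means was 21.8 and the log2 difference 2.46, at rank 75, or 3.997 with a pseudocount of 0.1. Its neighbor and relative Mpzl3 was higher too, at 1.27 and 1.13 RPKM in cKO libraries and 0.223 and 0.395 RPKM in WT libraries (log2 difference 0.75, limma adjusted p = 0.00866, up to 0.086 over the alternatives, with quantile normalization). The broadly expressed Mpzl1 was at 25.1 and 20.9 RPKM in cKO libraries and 24.3 and 26.8 RPKM in WT libraries (log2 difference -0.15, limma adjusted p = 0.408), but it was called lower under 3 of 14 alternatives, the scalings, with a lowest adjusted p of 0.0297.

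Lypd2 encodes a small protein with the Ly6/uPAR fold, and its function is not well known. It was at 5.15 and 9.96 RPKM in cKO libraries and at 0.542 and 0.526 RPKM in WT libraries, a ratio of means of 14.1 and a log2 difference of 2.42, at rank 78. Its transcript is short, at 513 bases, and the estimated reads were 239 and 212 in cKO libraries and 12.9 and 24.1 in WT libraries. The gene spans chr15:74732247-74734329 on the minus strand, in the cluster that also holds Slurp1 and Lynx1. Ly6a, the family member that encodes the sort marker Sca1, was lower in cKO, at 108 and 47.0 RPKM in cKO libraries and 216 and 120 RPKM in WT libraries (log2 difference -1.16, limma adjusted p = 0.048), but the call was lost under 5 of 14 alternatives, with an adjusted p of 0.183 without the filter. The sort selects on Sca1 protein, and whether the gate bears on the Ly6a level was not tested.

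In order of level, cKO libraries placed Itga6 and Cldn1 first, with their order exchanged between the 2 libraries, then Tjp1, Itgb4, Lypd2, Mpzl2, and Ocln. In WT libraries Tjp1 led, followed by Itga6 and Cldn1 and then Itgb4 and Lypd2, and within each of these pairs the order changed between libraries. Mpzl2 and Ocln were lowest in all 4. In cKO, Itgb4 (8.84 to 11.1 RPKM) overlapped Lypd2 (5.15 to 9.96 RPKM), which overlapped Mpzl2 (4.78 to 7.67 RPKM), whereas Tjp1 and Ocln overlapped none of the others.

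**Figure D3:**
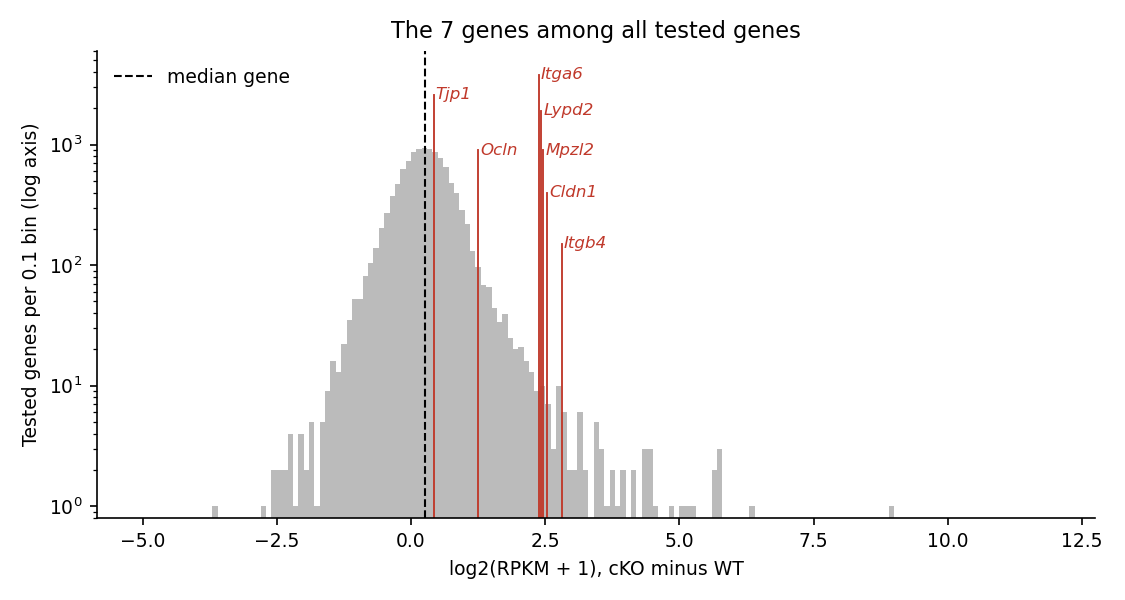
Histogram of the difference in log2(RPKM + 1), cKO minus WT, for 11197 tested genes in bins of 0.1, with a log count axis, a dashed line at the median gene, and a red line for each of the 7 genes. Itga6, Lypd2, Mpzl2, Cldn1, and Itgb4 lie between 2.38 and 2.81, Ocln at 1.24, and Tjp1 at 0.42, close to the median of 0.27.

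To show the promoters of the tight junction genes side by side, the 250 bases before the annotated start were read for the 3 of the 7 genes matched in the RefSeq promoter table used here (GRCm38.p6), Cldn1 (chr16:26371840-26372089), Ocln (chr13:100552719-100552968), and Tjp1 (chr7:65371245-65371494), all on the minus strand. They are written 5′ to 3′ with the GC box, GGGCGG or its complement CCGCCC, in capitals. For Tjp1 the start is that of the RefSeq entry, inside the longer gene model of GENCODE.
Cldn1: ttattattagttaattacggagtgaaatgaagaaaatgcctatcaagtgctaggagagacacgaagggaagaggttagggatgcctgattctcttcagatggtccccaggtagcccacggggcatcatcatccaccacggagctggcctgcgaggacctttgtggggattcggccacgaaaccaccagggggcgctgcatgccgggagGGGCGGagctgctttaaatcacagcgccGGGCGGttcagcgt
Ocln: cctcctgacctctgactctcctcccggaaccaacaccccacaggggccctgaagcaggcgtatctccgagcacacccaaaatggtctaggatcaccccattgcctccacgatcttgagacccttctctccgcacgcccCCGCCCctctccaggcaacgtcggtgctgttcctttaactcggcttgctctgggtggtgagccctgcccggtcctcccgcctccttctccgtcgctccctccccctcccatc
Tjp1: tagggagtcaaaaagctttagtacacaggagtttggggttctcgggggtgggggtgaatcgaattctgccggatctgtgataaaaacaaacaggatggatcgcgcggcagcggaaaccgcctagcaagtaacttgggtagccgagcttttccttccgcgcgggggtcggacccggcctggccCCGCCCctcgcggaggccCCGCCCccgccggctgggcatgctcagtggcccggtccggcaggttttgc
The GC box occurred 2 times before Cldn1, 1 time before Ocln, and 2 times before Tjp1, and it occurs in 32.7% of 32851 such windows of all genes. GC content was 55.6%, 64.0%, and 63.2% for Cldn1, Ocln, and Tjp1, against a median of 52.4% over all windows. The TATA box (TATAAA, in 12.4% of windows), the AP-1 motif (TGANTCA, in 6.75%), and the Snail-type E-box (CAGGTG, in 17.2%), each sought on both strands, had 0 matches in these 3 windows. A second Ocln start in RefSeq has a window that overlaps this one and holds the E-box 2 times. The GC box thus stands before Cldn1 and Ocln, with ratios of means of 7.35 and 26.1, and before Tjp1, with 1.37, and a match of letters does not show that a factor binds.

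To investigate how far the difference extended to related genes, 5 lists of junction and integrin genes were described, leaving out the 7. They held 152 genes in the table, of which 80 were tested. By limma 36 of the 80 were higher in cKO (45%) and 7 lower (8.75%), against 35.9% and 6.48% of all tested genes. The median difference was 0.34, against 0.27 for all genes. Of the 80, 11 passed the filter through cKO libraries only. Of the other 69, 25 were higher (36.2%), against 3568 of 10664 genes over the whole table counted in the same way (33.5%). Cgn, Itga3, Itgb7, Perp, Cdh6, Gjb2, Tenm2, Msln, Abcb1a, Wif1, Scn4b, Mpzl3, Epcam, and Map3k20 passed the filter through cKO libraries only. Both WT libraries were under 1 RPKM for these genes, so their adjusted p is a description and no support.

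Among 27 tested tight junction genes 8 were higher and 1 lower, with a median of 0.24. That is 29.6% higher and 3.7% lower, against 35.9% and 6.48% of all tested genes. Genes with large differences were Cgn, which encodes the ZO-binding plaque protein cingulin, and Esam, an adhesion molecule best known from endothelium. Cgn was at 1.88 and 3.03 RPKM in cKO libraries and 0.114 and 0.0694 RPKM in WT libraries (log2 difference 1.64, limma adjusted p = 0.00122). Esam was at 6.00 and 7.73 RPKM in cKO libraries and 1.27 and 1.74 RPKM in WT libraries (log2 difference 1.65, limma adjusted p = 0.000944). F11r, which encodes the junctional adhesion molecule JAM-A, passed (limma adjusted p = 0.022) but lost its call under 5 of 13 alternatives, with an adjusted p of up to 0.108. Jam2 was the gene called lower, at 5.72 and 4.40 RPKM in cKO libraries and 7.63 and 8.80 RPKM in WT libraries (limma adjusted p = 0.0228, and 0.15 without WT 2, the highest over the alternatives). Cxadr, at 0.877 and 1.11 RPKM in cKO libraries and 0.226 and 0.269 RPKM in WT libraries, was too low to be tested.

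Of 15 other integrin subunits tested, 8 were higher (53.3%) and 3 lower (20%), against 35.9% and 6.48% of all tested genes. The median difference was 0.56. Of the 15, 3 entered the fit through cKO libraries only. Among the other 12, 5 were higher (41.7%), against 33.5% of all genes counted in the same way. Itga7 and Itga3, which encode the laminin-binding partners of β1, were among those higher. Itga7 was at 29.6 and 42.3 RPKM in cKO libraries and 9.38 and 11.7 RPKM in WT libraries (log2 difference 1.66, limma adjusted p = 0.00106), and Itga3 at 1.72 and 2.07 RPKM in cKO libraries and 0.153 and 0.188 RPKM in WT libraries (log2 difference 1.30, limma adjusted p = 0.00126). Itgb7, known from leukocytes, rose by 1.31 on the log2 scale (limma adjusted p = 0.00304). Itgb5, part of a vitronectin receptor, was lower (log2 difference -0.72, limma adjusted p = 0.0168, up to 0.0728 without the filter), as was Itga2b, known from platelets (log2 difference -0.62, limma adjusted p = 0.0214, up to 0.205 without WT 1).

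The hemidesmosome and laminin list had 6 of 16 tested genes higher (37.5%) and 2 lower (12.5%), against 35.9% and 6.48% of all tested genes. The median difference was 0.31. Of the 16, 1 entered the fit through cKO libraries only. Among the other 15, 5 were higher (33.3%), against 33.5% of all genes counted in the same way. Lama5, which encodes the α5 chain of the laminins that α6 and α3 integrins bind, had the largest difference of the list, at 13.5 and 14.2 RPKM in cKO libraries and 0.938 and 1.47 RPKM in WT libraries (log2 difference 2.76 ± 0.17 SE, limma adjusted p = 0.000105). Cd151, a tetraspanin that associates with α6 integrins, was at 44.5 and 55.1 RPKM in cKO libraries and 18.4 and 18.4 RPKM in WT libraries (log2 difference 1.38, limma adjusted p = 0.00067). Plec, whose product plectin links β4 to keratin filaments, was at 57.7 and 57.1 RPKM in cKO libraries and 30.3 and 31.1 RPKM in WT libraries (log2 difference 0.88, limma adjusted p = 0.00155). Lamb3, a laminin chain of epidermal basement membrane, did not pass, at 1.09 and 1.32 RPKM in cKO libraries and 1.04 and 0.548 RPKM in WT libraries (limma adjusted p = 0.218), and Lama3, another such chain, stayed under 1 RPKM in every library. Dst, whose epithelial isoform is a hemidesmosome plaque protein, overlapped between groups (limma adjusted p = 0.29). Lama4 (log2 difference -0.57, limma adjusted p = 0.00958) and Lamb1 (log2 difference -0.39, limma adjusted p = 0.0495), laminin chains of vessels and mesenchyme, were lower, but without WT 2 their adjusted p was 0.0716 and 0.414, the highest over the alternatives.

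Of 15 tested genes of adherens junctions and desmosomes 9 were higher (60%) and 1 lower (6.67%), against 35.9% and 6.48% of all tested genes. The median difference was 0.84. Of the 15, 2 entered the fit through cKO libraries only. Among the other 13, 7 were higher (53.8%), against 33.5% of all genes counted in the same way. Perp, which encodes a tetraspan protein of desmosomes, was at 9.37 and 16.3 RPKM in cKO libraries and 0.488 and 0.373 RPKM in WT libraries (log2 difference 3.23 ± 0.24 SE, limma adjusted p = 0.000243), a larger difference than that of any of the 7. Cdh6, a cadherin of kidney and neural crest, was at 2.92 and 2.64 RPKM in cKO libraries and 0.265 and 0.243 RPKM in WT libraries (log2 difference 1.59, limma adjusted p = 0.00058). Cdh11, the cadherin of mesenchymal cells, was lower (log2 difference -0.45, limma adjusted p = 0.0282, up to 0.233 without WT 2). Cdh1, which encodes the epithelial E-cadherin, stayed at 0.157 and 0.270 RPKM in cKO libraries and 0.0125 and 0.0400 RPKM in WT libraries.

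Among 7 tested connexins of gap junctions 5 were higher (71.4%) and 0 lower (0%), against 35.9% and 6.48% of all tested genes. The median difference was 1.08. Of these connexins, 4 entered the fit through cKO libraries only. Among the other 3, 1 was higher (33.3%), against 33.5% of all genes counted in the same way. Gjb2, which encodes connexin 26, was at 5.27 and 10.7 RPKM in cKO libraries and 0.254 and 0.305 RPKM in WT libraries (log2 difference 2.74, limma adjusted p = 0.000692). Gja1, the most abundant connexin gene here, was at 111 and 116 RPKM in cKO libraries and 101 and 102 RPKM in WT libraries (log2 difference 0.16, limma adjusted p = 0.277), and its difference fell below 0 when libraries were rescaled.

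**Figure D4:**
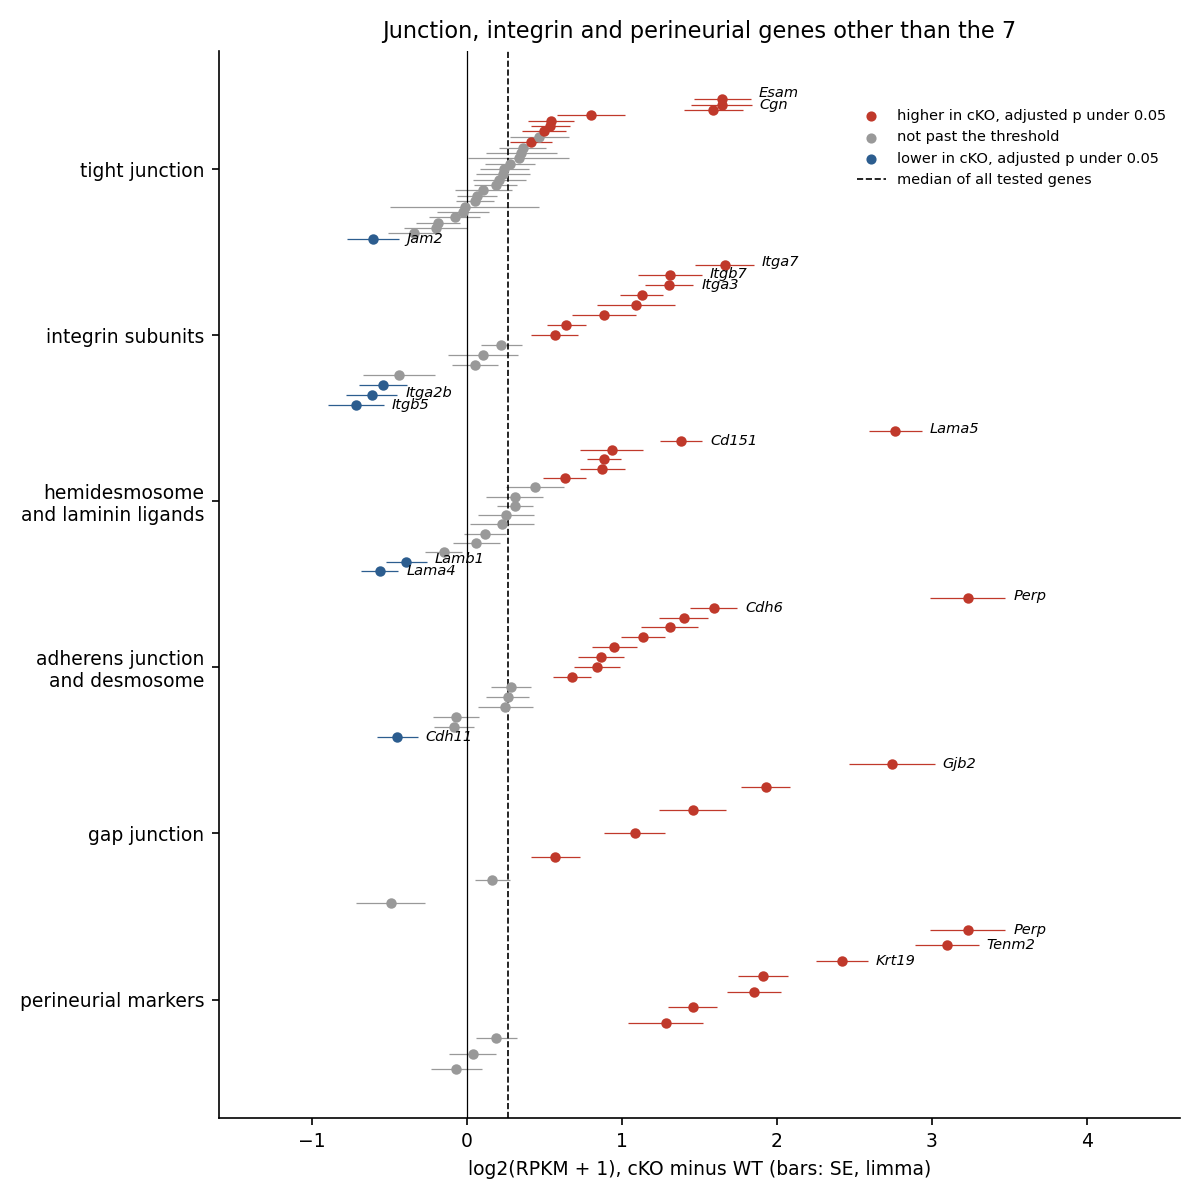
Difference in log2(RPKM + 1), cKO minus WT, with its SE from limma, for each tested gene of 5 junction and integrin lists and of the perineurial marker list, leaving out the 7 genes, with some of the called genes labelled. List medians run between 0.24 for tight junction genes and 1.65 for perineurial markers, with the dashed line at the median of all genes (0.27), and Lama5, Perp, Gjb2, and Tenm2 lie beyond 2.7.

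Whether the table carried other marks of perineurial cells was described with 10 perineurial marker genes that are not among the 7. All 10 were tested, 7 were higher in cKO and 0 lower, and their median difference was 1.65. Over all tested genes 35.9% were higher and 6.48% lower. Of the 10, 4 entered the fit through cKO libraries only. Among the other 6, 3 were higher (50%), against 33.5% of all genes counted in the same way. Slc2a1, which encodes the glucose transporter GLUT1 of the perineurium, was at 82.7 and 111 RPKM in cKO libraries and 36.1 and 32.6 RPKM in WT libraries (log2 difference 1.46, limma adjusted p = 0.000912). Tenm2, which encodes a teneurin adhesion receptor, was at 7.37 and 11.2 RPKM in cKO libraries and 0.218 and 0.146 RPKM in WT libraries (log2 difference 3.09, limma adjusted p = 0.000133). Muc1, which encodes the epithelial membrane antigen, overlapped between groups, at 3.04 and 3.07 RPKM in cKO libraries and 2.86 and 3.05 RPKM in WT libraries (limma adjusted p = 0.865). The other markers called were Perp, Krt19, Crabp2, Abcb1a, and Msln, and Ntn4 and Slc16a1 did not pass. These lists were drawn up with earlier results of the same libraries known and are no independent evidence of direction. In bulk libraries such as these, more cells of a type and more RNA per cell cannot be told apart.

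Fibroblasts inside the nerve were listed separately, and of 11 tested markers 3 were higher and 4 lower, with a median of -0.23. That is 27.3% higher and 36.4% lower, against 35.9% and 6.48% of all tested genes. Of the 11, 2 entered the fit through cKO libraries only. Among the other 9, 1 was higher (11.1%), against 33.5% of all genes counted in the same way. Wif1, a secreted Wnt inhibitor, was at 11.1 and 16.8 RPKM in cKO libraries and 0.900 and 0.464 RPKM in WT libraries (log2 difference 3.14, limma adjusted p = 0.000207). Sox9, a transcription factor that chondrocytes also express, was at 32.9 and 34.5 RPKM in cKO libraries and 15.5 and 16.0 RPKM in WT libraries (log2 difference 1.05, limma adjusted p = 0.000971). Sfrp2 (log2 difference -1.21, limma adjusted p = 0.0185) and Apod (log2 difference -0.75, limma adjusted p = 0.0244) were lower, and without the filter their adjusted p was 0.097 and 0.104, the highest over the alternatives. Calls of the nerve fibroblast markers thus went both ways, but among the 9 that did not enter through cKO alone only Sox9 was higher.

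The families of Mpzl2 and Lypd2, leaving out these 2 genes, held 10 and 34 genes in the table. Among 5 tested genes of the family of Mpzl2 3 were higher, with a median of 0.75, Mpzl3 and Scn4b among them. Mpzl3 and Scn4b entered the fit through cKO libraries only. Among the other 3, 1 was higher (33.3%), against 33.5% of all genes counted in the same way. Scn4b, a sodium channel β subunit, was at 1.37 and 1.52 RPKM in cKO libraries and 0.0933 and 0.0844 RPKM in WT libraries (log2 difference 1.17, limma adjusted p = 0.00169). Among 12 tested genes of the Ly6/uPAR family 1 was higher and 2 lower, with a median of 0.24. That is 8.33% higher and 16.7% lower, against 35.9% and 6.48% of all tested genes. The gene called higher was Plaur, the urokinase receptor (limma adjusted p = 0.0204, up to 0.179 after median-ratio scaling), and those called lower were Ly6a and Ly6g6c (limma adjusted p = 0.0219 for Ly6g6c, up to 0.151 without WT 2).

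Markers of other cell types were read beside these values. Their counts of calls stand against 35.9% higher and 6.48% lower over all tested genes. Chondrocyte markers were far higher in cKO, with a summed level of 2263 and 1945 RPKM in cKO libraries and 28.5 and 23.6 RPKM in WT libraries, and 11 of 11 were called. Tenocyte markers summed to 2552 and 1901 RPKM in cKO libraries and 716 and 1235 RPKM in WT libraries, with 7 of 8 called higher. Schwann cell markers summed to 77.3 and 60.0 RPKM in cKO libraries and 35.2 and 61.0 RPKM in WT libraries, with 5 of 7 tested called higher. In both lists 1 early response gene that overlapped between groups weighed on the sum, Egr1 among tenocyte and Egr2 among Schwann cell markers. Without Egr1 the tenocyte sum was 1840 and 1600 RPKM in cKO libraries and 201 and 182 RPKM in WT libraries, and without Egr2 the Schwann cell sum was 38.7 and 48.0 RPKM in cKO libraries and 18.2 and 20.5 RPKM in WT libraries. Acan, Col9a1, Matn1, Matn3, Hapln1, and Snorc of the chondrocyte list entered the fit through cKO libraries only. So did the tenocyte markers Scx and Mkx and the Schwann cell marker Ncmap, so the calls of these genes are a description. The part of chondrocytes, tenocytes, and Schwann cells in the levels of the 7 genes was not tested.

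The sum of epithelial markers was 10.7 and 6.74 RPKM in cKO libraries and 3.27 and 3.05 RPKM in WT libraries, and 2 of the 12 listed reached the filter, Epcam and Sfn, both called higher. Sfn made up most of the sum, at 7.69 and 4.16 RPKM in cKO libraries and 2.37 and 2.10 RPKM in WT libraries. Epcam was at 1.46 and 1.76 RPKM in cKO libraries and 0.176 and 0.0816 RPKM in WT libraries (limma adjusted p = 0.00175). The keratins of basal stratified epithelium were near 0, with Krt5 at 0.455 and 0.0538 RPKM in cKO libraries and 0.0203 and 0.0424 RPKM in WT libraries, and Krt14 at 0.0738 and 0.0174 RPKM in cKO libraries and 0.0333 and 0.0125 RPKM in WT libraries. The keratins of simple epithelium were low but higher in both cKO libraries, with Krt8 at 0.183 and 0.0856 RPKM in cKO libraries and 0.0106 and 0.00525 RPKM in WT libraries, and Krt18 at 0.114 and 0.145 RPKM in cKO libraries and 0.00615 and 0.0192 RPKM in WT libraries. Krt19, a keratin of simple epithelium that stands here in the perineurial list, was at 8.29 and 10.2 RPKM in cKO libraries and 1.01 and 0.805 RPKM in WT libraries (limma adjusted p = 0.000163). Other listed markers, too low to be tested, went the other way. Trp63 was at 0.0455 and 0.0746 RPKM in cKO libraries and 0.130 and 0.289 RPKM in WT libraries. Ovol1 and Esrp2 overlapped between groups, with means of 0.210 and 0.0964 RPKM in cKO and 0.324 and 0.150 RPKM in WT. The part of epithelial cells in the levels of the 7 genes was not tested. Endothelial markers summed to 37.9 and 44.0 RPKM in cKO libraries and 30.1 and 34.4 RPKM in WT libraries. Of 7 tested, 2 were called higher and 0 lower. Cdh5 was at 6.45 and 11.3 RPKM in cKO libraries and 1.43 and 3.68 RPKM in WT libraries. Ecscr was at 6.89 and 12.2 RPKM in cKO libraries and 1.17 and 1.21 RPKM in WT libraries. Pecam1 and Kdr went the other way. Pecam1 was at 0.537 and 1.63 RPKM in cKO libraries and 1.67 and 3.12 RPKM in WT libraries (limma adjusted p = 0.0888). Kdr, too low to be tested, was at 0.542 and 0.458 RPKM in cKO libraries and 0.607 and 0.998 RPKM in WT libraries. Tek, not called, weighed on the sum, at 20.7 and 11.2 RPKM in cKO libraries and 22.8 and 18.9 RPKM in WT libraries. Hematopoietic markers summed to 11.9 and 17.6 RPKM in cKO libraries and 10.7 and 12.2 RPKM in WT libraries, with 2 of 4 tested called higher. Muscle stem cell markers summed to 57.0 and 71.1 RPKM in cKO libraries and 46.0 and 46.0 RPKM in WT libraries, with 1 of 5 tested called higher, Itga7, and 1 lower.

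**Figure D5:**
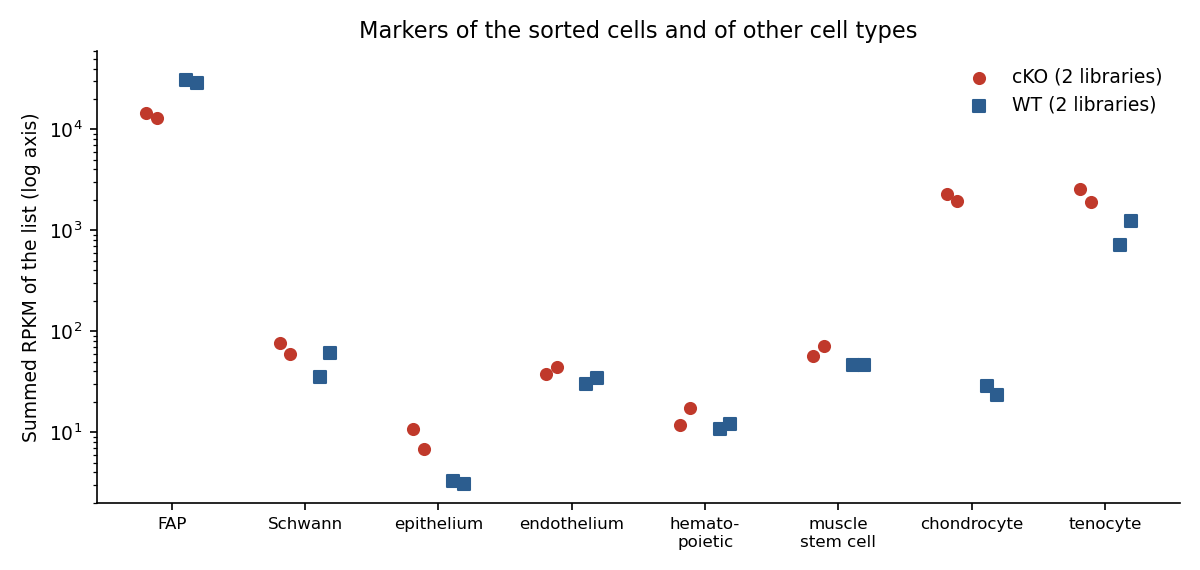
Summed RPKM of 8 marker lists in each library on a log axis, with the 2 cKO libraries (circles) left of the 2 WT libraries (squares). FAP markers are lower in cKO (14390 and 12798 RPKM) than in WT (30473 and 28644 RPKM), and chondrocyte markers differ most, at 2263 and 1945 RPKM in cKO and 28.5 and 23.6 RPKM in WT.

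The nearest genes on the chromosome, 3 on each side of each of the 7, were also read. Of 42 such neighbors 18 were tested, 9 were higher and 1 lower, against 35.9% and 6.48% of all tested genes, and their median difference was 0.56. Map3k20 and Mpzl3, both counted as higher, entered the fit through cKO libraries only. Part of the count of 9 thus comes through the filter, and nothing about position is read from it. The neighbor with the greatest difference was P3h2, a collagen prolyl hydroxylase gene beside Cldn1, at 14.4 and 12.2 RPKM in cKO libraries and 2.79 and 3.39 RPKM in WT libraries (log2 difference 1.81, limma adjusted p = 0.000434). On the other side of Cldn1, Cldn16 was at 0.00378 and 0.00824 RPKM in cKO libraries and 0.00735 and 0.00383 RPKM in WT libraries. The others called higher were Sap30bp, H3f3b, and Unk near Itgb4, Map3k20 near Itga6, Rad17 and Ak6 near Ocln, Nsmce3 near Tjp1, and Mpzl3 near Mpzl2, and Metap1d near Itga6 was lower. Of these, H3f3b, Unk, Rad17, Ak6, and Mpzl3 lost their call under some alternatives, with limma adjusted p of up to 0.306 for H3f3b (median-ratio scaling), 0.148 for Unk and 0.119 for Rad17 (without WT 1), and 0.0803 for Ak6 (median-ratio scaling). Beside Lypd2, 2 neighbors were tested and did not pass, Slurp1 and Lynx1 (limma adjusted p = 0.147 and 0.116).

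The profile of the 7 over the 4 libraries, taken as the mean of their centred log2 values, was 0.81 and 1.23 in cKO libraries and -1.06 and -0.98 in WT libraries. The 5 other tested genes nearest to it by Euclidean distance were Krt16 (0.0902), Myl9 (0.0996), Tpm2 (0.114), Eps8l2 (0.124), and Septin9 (0.127). Krt16, a keratin of stressed epidermis, was at 2.55 and 3.70 RPKM in cKO libraries and 0.0353 and 0.00492 RPKM in WT libraries. Myl9, a myosin light chain of smooth muscle and contractile cells, was at 136 and 196 RPKM in cKO libraries and 36.0 and 38.5 RPKM in WT libraries. Likeness over 4 libraries of 2 groups reflects the group difference and the gap between cKO 1 and cKO 2, and it is a description only.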

How the data were processed

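RNA-Seq reads of sorted cells from 2 cKO and 2 WT mice were processed by the authors, who deposited RPKM per RefSeq gene for 20027 genes in 1 table. The notes of the submitters list edgeR, bedtools, TopHat2 (version 2.0.9), and 2 builds (mm9, mm10) with no roles given. RPKM depends on transcript length and library total, so a few abundant genes shift the rest. Depth was estimated from the lowest values of 405 olfactory receptor genes, taking 2.5 times the value of a gene with no reads as 1 read, and limits the precision of low genes.

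Values were analyzed as log2(RPKM + 1) with limma (version 3.58.1, R 4.3.3, eBayes with trend, two-sided, Benjamini-Hochberg threshold 0.05) in genes with at least 1 RPKM in 2 libraries. This scale understates changes of low genes. An exact permutation test of 2 against 2 cannot go below p = 0.333. The pipeline was tested on simulated data with 200 genes changed in random directions and the same added spread for every gene. The real libraries differ in both respects, so the simulation does not check the calls made here. Groups came from the labels. The members and lists were chosen with earlier results of these data known. Genes named besides the members were partners by role, the 2 called genes of each list with the largest difference per direction, called neighbors, and the 5 most alike genes, and other names were chosen after their values were seen. Alternatives were pseudocounts, filters, scalings, moderation, a replicate block, and leaving out each library. Sequences and neighbors came from RefSeq (GRCm38.p6) and positions from GENCODE (GRCm38), which may not be the build used by the authors. Some genes that this rule names are not reported here.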

Additional observations from a re-analysis of the deposited data

How the results depend on the processing

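Rescaling changed the balance of calls over all genes most. Genes higher in cKO numbered 4016, against 1705, 1777, and 1885 after median-ratio, quantile, and cyclic loess scaling, and genes lower numbered 726, against 1560, 1818, and 1710. The share of calls that were higher was 84.7%, against 52.2%, 49.4%, and 52.4%, and the median gene lay at -0.00, -0.02, and -0.00. Leaving out 1 library gave 2386 to 4044 higher and 390 to 1258 lower over all genes (2413 higher without WT 1, 2386 higher and 390 lower without WT 2, 1258 lower without cKO 1), and 26 to 38 higher and 1 to 8 lower among the junction and integrin genes, where lower calls were 1 without WT 1 or without WT 2. Lower junction and integrin genes numbered 12 under each of the 3 scalings and 2 without the filter. The FDR limit of the study (1e-05), set for its own analysis, was also applied to the limma fit. It left 5 genes higher and 0 lower over all genes, with 0 and 0 among the junction and integrin genes. These counts are therefore not those of the study. The median difference of the 7 genes was 2.42, and it was 3.33 with a pseudocount of 0.1, 2.07 after quantile normalization, and 2.07 to 2.75 with 1 library left out. Values turned below 0 for Dst after quantile normalization (-0.0021) and, after median-ratio, quantile, and cyclic loess scaling, for Muc1 (-0.20, -0.20, and -0.15), Gja1 (-0.15, -0.074, and -0.093), and Bap1 (-0.17, -0.22, and -0.22), none of which had been called. The cause was not tested. Of 49 called genes that the naming rule took besides the 7, 30 kept their call under every alternative that could be fitted.

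With the replicate number as a block, 3552 genes were higher and 731 lower, and 35 and 7 among the junction and integrin genes. The deviations of cKO 1 and WT 1 correlated at -0.30 over 11197 genes, so a crossed pairing was added after seeing the data, and it gave 4807 higher and 1088 lower over all genes and 40 and 8 among the junction and integrin genes. The samples share only a number. Depth limits Ocln and Lypd2 most, at 9.59 to 24.1 estimated reads in WT libraries, and these estimates cover counting only.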
